A study of Mus musculus with 8 samples.

Results

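The interferon-induced transmembrane (Ifitm) family was examined in spleen cells of leukemic mice through the 5 genes Ifitm1, Ifitm2, Ifitm3, Ifitm5 and Ifitm6. All probe sets that the platform annotation gives 1 of these symbols were taken, which gave 5 probe sets, 1 per gene, among 45101 probe sets and 18193 named genes. The family was picked with the genotype comparison in view, because Ifitm1 stood among the genes that differed most clearly there. The genotype differences of its members are therefore described below without a test, and they support nothing beyond these arrays.

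Ifitm proteins are small membrane proteins that share a CD225 domain and hinder the fusion of enveloped viruses with cell membranes. Ifitm1 is found largely at the cell surface, whereas Ifitm3 is drawn into endosomes. Interferons induce several of them through the interferon-stimulated response element (ISRE), a promoter sequence read by interferon regulatory factors. Ifitm1 and Ifitm3 also mark primordial germ cells, and Ifitm5 is known as a gene of bone-forming osteoblasts that interferon does not induce.

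Total RNA of spleen cells was hybridised to Affymetrix mouse arrays, with 8 arrays in all and 4 per genotype. The full-length mice were chimeras with the leukemia fusion CBFb-SMMHC, which joins core-binding factor beta to smooth muscle myosin. Their spleens were taken 2 months after the mutagen ENU was given, and the series text calls them knock-in mice. The truncated mice were chimeras with CBFb-SMMHCd179-221, which lacks a segment that serves tight RUNX1 binding, and their spleens were taken 3 weeks after birth. The labels name no ENU for the truncated mice. Genotype, mutagen and age cannot be told apart in this design. Each genotype had 2 animals by the labels, of which animal 1 gave a single array and animal 2 gave 3. The series text speaks of 2 experiments per genotype without assigning arrays to them, and the share of spleen cells with a fusion is not stated. The cells were not described as sorted, so fewer cells of a type and less RNA per cell cannot be told apart in any value below.

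The arrays did not follow the animal labels. Array 1 of animal 2 was closer to that of animal 1 (Pearson r over all probe sets 0.989 in full-length and 0.987 in truncated mice) than to arrays 2 and 3 of its own animal (0.954 and 0.953 in full-length, 0.976 and 0.976 in truncated mice). Arrays 2 and 3 of animal 2 lay at r = 0.997 in both genotypes. Below, the first array pair is animal 1 together with array 1 of animal 2, and the second array pair is the remaining arrays of animal 2. These pairs were formed from the correlations. The median of the erythroid list was 11.03 and 10.96 on the first full-length pair, and 8.62 and 8.64 on the second. The median of the T and NK cell list lay between 5.03 and 5.38 on all arrays, although its brightest member Nkg7 reached 8.35 and 8.40 on the second full-length pair and 7.997 and 7.88 on the second truncated pair. The B cell list median was at most 5.24 on full-length arrays and reached 6.41 and 6.31 on the second truncated pair. For plasma cell genes the median reached 8.10 and 8.12 on that pair, against 5.48 and 5.46 on the first truncated pair. The plasma cell gene Jchain, chosen after its values were seen, lay at 10.85 and 10.81 on that second truncated pair. The progenitor receptor Kit lay at 8.47 ± 1.43 and 7.90 ± 1.79 (log2, mean ± SD of 2 animals, full-length first here and below). For comparison, the median over all probe sets and animals was 4.76, and the values are RMA expression values on a log2 scale throughout.

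The 5 genes lie within 67.9 kb on chromosome 7 of the mouse genome (GRCm38.p6 coordinates from RefSeq). Ifitm5 spans chr7:140948958-140950243, Ifitm2 chr7:140954837-140959686, Ifitm1 chr7:140967429-140969827, Ifitm3 chr7:141009590-141010744 and Ifitm6 chr7:141015812-141016892. Ifitm1 is read from the plus strand and the other 4 genes from the minus strand. The promoter windows below, from RefSeq on GRCm38.p6, run from 250 bases before to 50 bases after an annotated start of each gene, 5′ to 3′ on the strand of the gene. All 5 members matched the promoter table, and the windows are shown because 4 of these neighbouring genes differed together between the genotypes and the other one did not. Capitals mark, on either strand, matches to the ISRE core (GAAA, any 2 bases, GAAA) or to a composite of an ETS and an interferon regulatory factor site (GGAA, any 2 bases, GAAA).
Ifitm1, chr7:140967826-140968125, plus strand: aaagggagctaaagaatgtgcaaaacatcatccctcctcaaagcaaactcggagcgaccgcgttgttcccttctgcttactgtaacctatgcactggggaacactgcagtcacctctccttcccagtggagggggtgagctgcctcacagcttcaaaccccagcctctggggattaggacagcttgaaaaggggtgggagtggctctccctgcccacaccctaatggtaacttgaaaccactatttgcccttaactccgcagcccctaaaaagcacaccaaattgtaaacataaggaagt
Ifitm2, chr7:140955912-140956211, minus strand: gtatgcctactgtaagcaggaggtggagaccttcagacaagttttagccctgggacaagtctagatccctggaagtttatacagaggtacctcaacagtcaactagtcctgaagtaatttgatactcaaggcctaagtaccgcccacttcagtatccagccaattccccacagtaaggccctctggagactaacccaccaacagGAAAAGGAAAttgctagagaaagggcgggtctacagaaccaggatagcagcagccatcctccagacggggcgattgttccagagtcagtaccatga
Ifitm3, chr7:141010695-141010994, minus strand: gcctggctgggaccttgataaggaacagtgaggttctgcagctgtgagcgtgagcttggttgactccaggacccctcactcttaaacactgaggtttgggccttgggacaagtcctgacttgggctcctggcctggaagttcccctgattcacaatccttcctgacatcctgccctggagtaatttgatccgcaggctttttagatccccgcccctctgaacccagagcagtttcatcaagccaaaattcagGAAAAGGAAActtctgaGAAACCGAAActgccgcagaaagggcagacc
Ifitm6, chr7:141016843-141017142, minus strand: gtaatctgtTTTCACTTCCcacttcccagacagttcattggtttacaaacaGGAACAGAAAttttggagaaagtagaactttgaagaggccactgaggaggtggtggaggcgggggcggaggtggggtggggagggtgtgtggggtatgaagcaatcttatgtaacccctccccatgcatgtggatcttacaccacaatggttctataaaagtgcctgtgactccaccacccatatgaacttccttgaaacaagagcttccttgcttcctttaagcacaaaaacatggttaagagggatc
Ifitm5, chr7:140950194-140950493, minus strand: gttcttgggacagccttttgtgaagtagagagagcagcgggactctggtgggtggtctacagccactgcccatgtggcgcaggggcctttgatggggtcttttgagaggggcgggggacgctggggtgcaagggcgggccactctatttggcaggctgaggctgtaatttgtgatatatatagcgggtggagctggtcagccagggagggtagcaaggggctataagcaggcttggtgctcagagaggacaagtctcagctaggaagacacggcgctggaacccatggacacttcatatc

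The ISRE core was found in the windows of Ifitm2 and Ifitm3, that is in 2 of 5, and in 3.43% of 32817 promoter windows of the same length. In Ifitm3 the matches GAAAAGGAAA and GAAACCGAAA begin at positions 3 and 20 from the start, and in Ifitm2 the match GAAAAGGAAA begins at position -46. The composite occurred in the Ifitm6 window only, at positions -241 and -199, and in 2.72% of all windows. The gamma-activated site TTCNNNGAA was present in Ifitm3 at position 14, where it overlaps the second ISRE match, and in Ifitm6 at position -10, against 8.29% of all windows. The RUNX core TGTGGT was matched once, on the minus strand of Ifitm6 at position -59, and in 16.8% of all windows. TGCGGT, the C/EBP site TTGCNNAA and the PU.1 core GAGGAAGT matched no member window, against 6.45%, 10.8% and 3.2% of all windows. The Ifitm1 and Ifitm5 windows held none of these 7 sequences, on either strand. A match describes the letters in the window and not binding, and starts of Ifitm1 and Ifitm2 further upstream within their annotated spans were not searched.

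Ifitm1, Ifitm2, Ifitm3 and Ifitm6 were higher on every truncated array than on every full-length array, and Ifitm5 was not. Arrays of the genotypes did not overlap, with higher values in truncated mice, for 4 of the 5 members, against 10.3% of the 11386 genes that passed a filter on dim values. A further 8.76% of the genes were lower without overlap. All 5 members passed that filter, which asked for at least 2 of 4 animals above the array median. Since the family was picked on this comparison, nothing is read from that count.

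**Figure D1:**
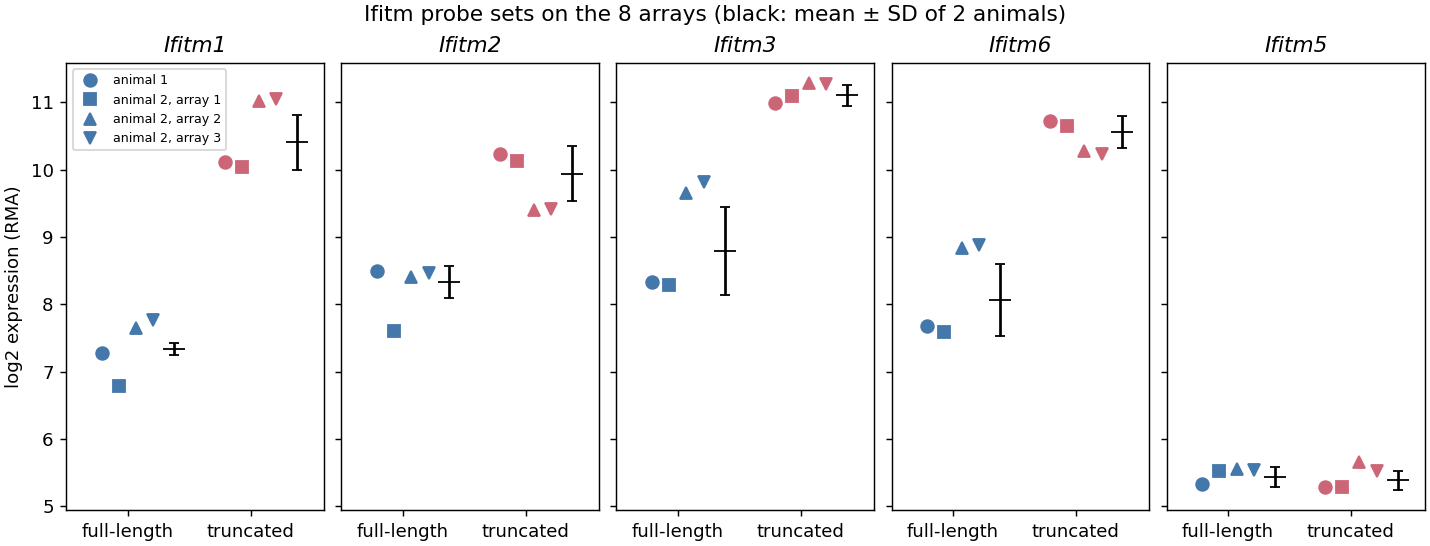
Log2 expression (RMA) of the 5 Ifitm probe sets on each of the 8 arrays, by genotype, with the marker shape giving the animal and array and the black bar the mean ± SD of 2 animals. The 4 truncated arrays lie above the 4 full-length arrays for Ifitm1, Ifitm2, Ifitm3 and Ifitm6, while the Ifitm5 values of both genotypes lie between 5.28 and 5.66.

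Ifitm1, the member found largely at the cell surface, had the largest difference of the family. Its log2 expression was 7.27 in the array of full-length animal 1 and 6.78, 7.65 and 7.76 in arrays 1 to 3 of full-length animal 2. In truncated mice it was 10.12 in animal 1 and 10.03, 11.02 and 11.04 in the arrays of animal 2. The highest full-length and the lowest truncated array were 2.27 log2 units apart. The animal means were 7.34 ± 0.09 and 10.41 ± 0.41, a difference of 3.07 or 8.40-fold. The second array pair was above the first in both genotypes, by 0.68 in full-length and 0.96 in truncated mice. The genotype difference was accordingly much alike in both, at 3.05 in the first and 3.32 in the second array pair.

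Ifitm3, the endosomal member known for restricting influenza virus, lay at 8.33 in full-length animal 1 and at 8.28, 9.66 and 9.81 in the arrays of full-length animal 2. In truncated mice it lay at 10.99 in animal 1 and at 11.09, 11.28 and 11.28 in animal 2. The truncated arrays were close together, whereas the second full-length pair lay 1.43 above the first. The means were 8.79 ± 0.65 and 11.10 ± 0.16, a difference of 2.31 or 4.96-fold. Within array pairs the difference was 2.73 in the first and 1.54 in the second.

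Ifitm6, a member with less studied function, lay at 7.69 in full-length animal 1 and at 7.59, 8.84 and 8.88 in full-length animal 2. In truncated mice it lay at 10.73 in animal 1 and at 10.65, 10.28 and 10.23 in animal 2. The second array pair lay above the first in full-length mice (second minus first 1.22) and below it in truncated mice (-0.43). The means were 8.06 ± 0.53 and 10.56 ± 0.24, a difference of 2.49 or 5.63-fold. The difference was 3.05 in the first and 1.39 in the second array pair.

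Ifitm2, an endosomal relative of Ifitm3, lay at 8.50 in full-length animal 1 and at 7.60, 8.41 and 8.47 in full-length animal 2. In truncated mice it lay at 10.23 in animal 1 and at 10.13, 9.40 and 9.42 in animal 2. Array 1 of full-length animal 2 was below the other 3 full-length arrays, and the second truncated pair lay below the first (second minus first -0.77). The means were 8.33 ± 0.24 and 9.94 ± 0.41, a difference of 1.61 or 3.05-fold. It was 2.13 in the first and 0.98 in the second array pair.

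Ifitm5, the osteoblast gene, lay at 5.33 in full-length animal 1 and at 5.53, 5.56 and 5.54 in full-length animal 2. In truncated mice it lay at 5.29 in animal 1 and at 5.28, 5.66 and 5.53 in animal 2. The groups overlapped. The means were 5.44 ± 0.15 and 5.39 ± 0.14, a difference of -0.05. Of 12 osteoblast markers 8 were on the array and 3 passed the filter. Of these, the osteoblast factor Sp7 lay at 5.74 ± 0.10 and 5.76 ± 0.14 and the matrix gene Sparc at 5.42 ± 0.02 and 5.23 ± 0.28. Col1a2 lay at 5.13 ± 0.16 and 5.47 ± 0.06. Among the markers that did not pass, Ibsp, Dmp1 and Phex reached at most 3.65, while Alpl reached 4.93 and Col1a1 4.25. The family members Ifitm7 and Ifitm10, which lie outside the cluster, were dim, at 3.10 ± 0.27 and 3.52 ± 0.01 for Ifitm7 and at 4.27 ± 0.17 and 4.30 ± 0.59 for Ifitm10, and neither passed the filter.

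**Figure D2:**
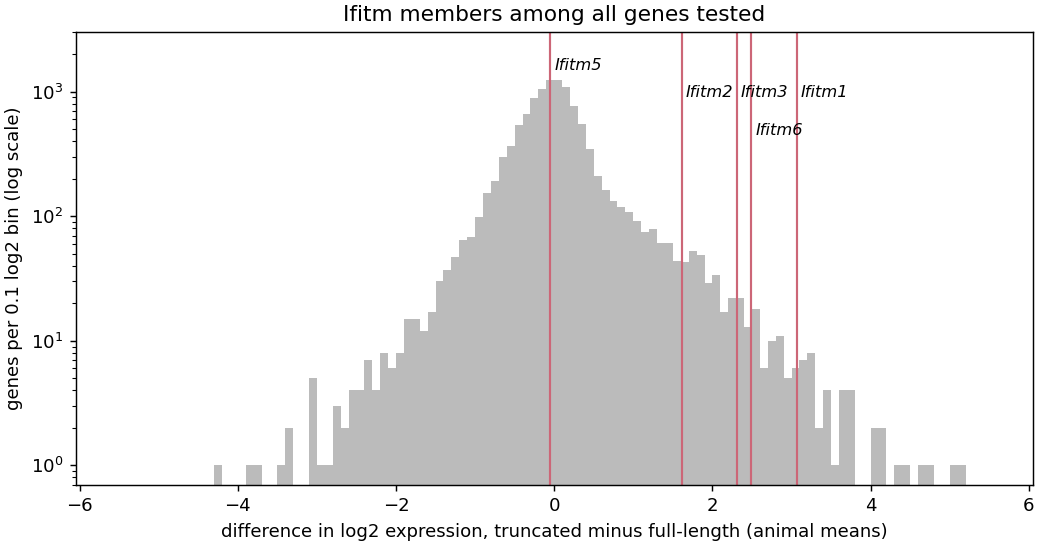
Distribution of the difference in log2 expression, truncated minus full-length (means of 2 animals each), over the 11386 genes tested, with the gene count per bin on a log axis and a line at each Ifitm member. Ifitm1 at 3.07 lies far out on the right flank, and Ifitm5 at -0.05 lies at the centre.

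Seen against all genes tested, 42 genes (0.37%) had a larger difference than Ifitm1. A total of 97 genes (0.85%) exceeded Ifitm6, 130 (1.14%) exceeded Ifitm3 and 371 (3.26%) exceeded Ifitm2. Ifitm5 stood near the middle, since 53.6% of the genes had a larger value and the median difference over all genes was -0.01. Without the first full-length array pair, when full-length animal 2 alone remains, the differences were 2.70 for Ifitm1, 1.503 for Ifitm2, 1.37 for Ifitm3 and 1.70 for Ifitm6. Those of Ifitm3 and Ifitm6 thus moved most, from 2.31 and 2.49.

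Over the 8 arrays Ifitm3 and Ifitm6 had the closest profiles of the family, with a Pearson r of 0.977. The other pairs among Ifitm1, Ifitm2, Ifitm3 and Ifitm6 lay between 0.846 (Ifitm1 and Ifitm2) and 0.947 (Ifitm1 and Ifitm3). After the mean of each genotype was taken away, r over the pooled deviations of both genotypes was 0.869 for Ifitm3 and Ifitm6, 0.681 for Ifitm1 and Ifitm3, and -0.185 for Ifitm1 and Ifitm2. On the full-length arrays, Ifitm1 and Ifitm2 were both lowest in array 1 of animal 2. On the truncated arrays they ran opposite ways, with Ifitm1 higher in the second and Ifitm2 higher in the first array pair. Ifitm5 had r = 0.004 with Ifitm1 and 0.018 with Ifitm3. These correlations are descriptions, because the arrays share animals and form closely alike pairs.

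The genes flanking the cluster differed less than its 4 higher members, as the plot of the cluster shows. Of the 10 protein-coding genes next to it, 5 on each side, all were on the array and 7 passed the filter. None was called (limma, adjusted p of 0.217 or more). As 0 of all 11386 genes (0%) were called in this fit, that count does not set the flanking genes apart from the members. On the side of Ifitm5, the differences were 0.31 for the mitochondrial deacetylase Sirt3, 0.06 for the proteasome subunit Psmd13, 0.35 for Cox8b and 0.59 for the glycosidase Pgghg, with Nlrp6 too dim to test. On the side of Ifitm6, the desmosome gene Pkp3 lay at 6.31 ± 0.67 and 7.67 ± 0.26, the receptor Sigirr at 7.51 ± 0.28 and 7.62 ± 0.13, and Ptdss2, a phosphatidylserine synthase, at 8.95 ± 1.03 and 7.68 ± 0.19. B4galnt4 and Ano9 were too dim to test. Pkp3 and B4galnt4 were the flanking genes whose arrays did not overlap, both with higher values in truncated mice.

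**Figure D3:**
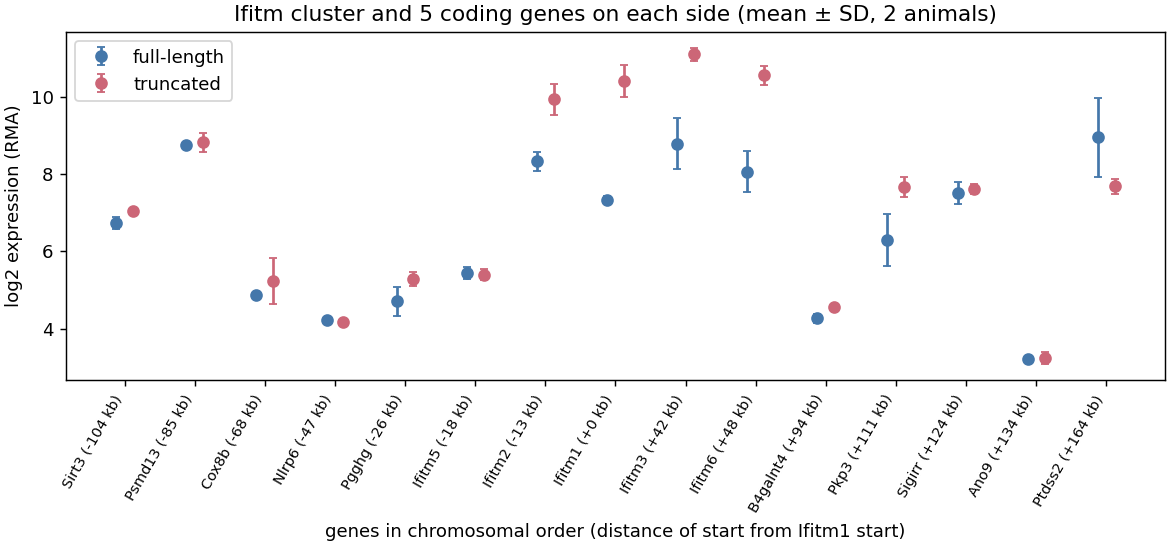
Log2 expression (RMA, mean ± SD of 2 animals) of the Ifitm genes and the 5 protein-coding genes on each side, in chromosomal order, with the distance of each start from that of Ifitm1 in kb and the genotypes in 2 colours. The gap between the colours is widest at Ifitm1 and is small for Ifitm5 and most flanking genes; levels of different genes are not comparable.

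The differences of classical interferon-stimulated genes were centred near 0 and ran both ways. Of 40 listed type I interferon-stimulated genes, none of them an Ifitm gene, 35 were on the array and 30 passed the filter, with 14 higher and 16 lower in truncated mice. Their median difference was -0.02, against -0.01 over all genes. At a limma adjusted p under 0.05, 0 were called, as were 0 of all 11386 genes (0%). A replicate block over the 8 arrays treats arrays of an animal as independent. With it 943 genes were called in all, 586 higher and 357 lower, among them 2 type I genes higher and 2 lower. At an unadjusted p under 0.05, 2 were higher and 5 lower, against 8.79% and 5.31% of all genes. Arrays did not overlap for 2 genes that were higher and 2 that were lower, against 10.3% and 8.76% of all genes. Those higher were Trim30a, at 5.52 ± 0.51 and 6.85 ± 0.69, and the nucleic acid sensor Zbp1, at 4.97 ± 0.0018 and 5.81 ± 0.14. Those lower were the exonuclease Isg20, at 9.63 ± 0.59 and 8.20 ± 0.26, and the antiviral enzyme Rsad2, at 7.25 ± 1.06 and 5.89 ± 0.11. Of the genes with the largest differences, the antiviral synthetase Oas3 lay at 6.47 ± 1.02 and 5.01 ± 0.62 (limma, adjusted p = 0.340), and the nucleotide kinase Cmpk2 at 6.02 ± 0.36 and 4.58 ± 1.10 (limma, adjusted p = 0.337).

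The median level of the type I list was 5.76 and 6.10 in the first and 7.48 and 7.68 in the second full-length pair, and 6.25, 6.29, 6.87 and 6.97 in the truncated arrays, so that the genotypes overlapped. Without the first full-length pair 7 of 30 genes were higher and 23 lower with a median difference of -0.89. The full-length group then holds 1 animal, so a test in this setting would rest on the spread of the truncated animals alone and is not given. In that setting Ifitm1, Ifitm2, Ifitm3 and Ifitm6 were still higher in truncated mice, by the values given above. The plot of the lists sets the members beside the other interferon genes.

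**Figure D4:**
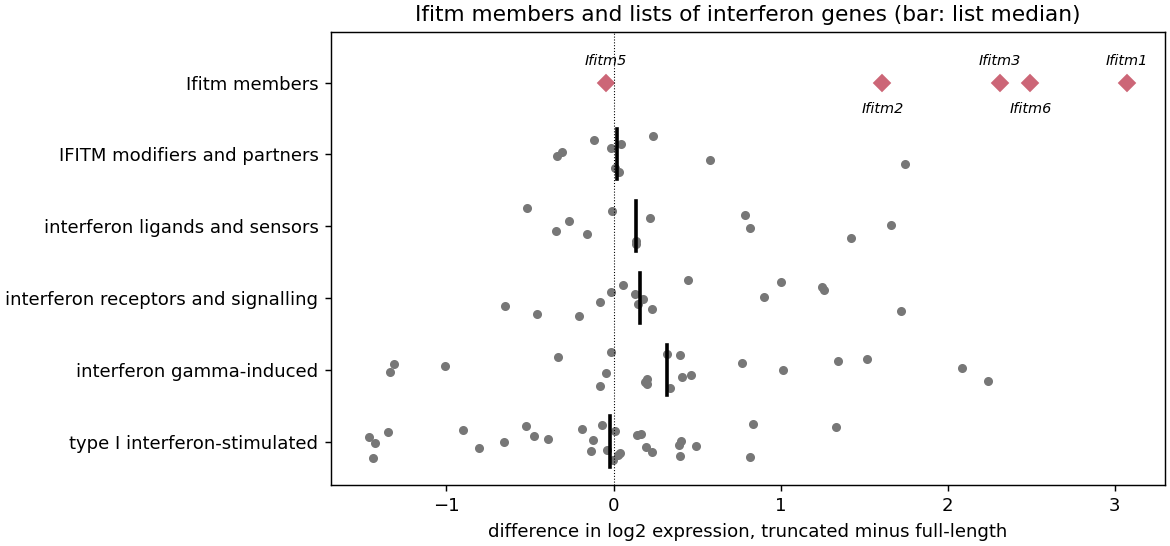
Difference in log2 expression, truncated minus full-length (means of 2 animals each), for each tested gene of 5 lists (grey points, list median as a black bar) and for the 5 Ifitm members (diamonds). The type I list is centred at -0.02, while Ifitm1, Ifitm2, Ifitm3 and Ifitm6 lie between 1.61 and 3.07.

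Of 30 genes induced by interferon gamma, 27 were on the array and 21 passed the filter, 14 of them higher and 7 lower, with a median difference of 0.32. None was called (limma, 0 of 21), and at an unadjusted p under 0.05, 6 were higher and 3 lower, against 8.79% and 5.31% of all genes. With the replicate block 2 were called higher and 0 lower, against 586 and 357 of all 11386 genes. Arrays did not overlap for 2 that were higher and 2 that were lower, against 10.3% and 8.76% of all genes. The 2 members with the largest differences, Fcgr1 and Irf8, are also known as myeloid genes. They were followed by Psmb9 (difference 1.52), Psmb8 (1.34) and Igtp (-1.34). Fcgr1, the high-affinity IgG receptor, lay at 5.16 ± 0.51 and 7.40 ± 1.15 (limma, adjusted p = 0.196). Its arrays overlapped, with 6.15 and 6.33 on the second full-length pair and 5.83 and 5.65 on the second truncated pair. Irf8, the interferon regulatory factor of monocyte and dendritic cell development, lay at 6.43 ± 0.18 and 8.52 ± 0.28 (limma, adjusted p = 0.0821). Without the first full-length pair the list median was -0.30, and 8 of 20 genes were higher.

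Of the interferon receptors and their signalling genes, 16 were tested, with 11 higher, 5 lower, a median difference of 0.16 and 0 called. With the replicate block 3 were called higher and 0 lower, against 586 and 357 of all 11386 genes. Arrays did not overlap for 4 that were higher and 0 that were lower, against 10.3% and 8.76% of all genes. Ifngr1, the ligand-binding chain of the interferon gamma receptor, lay at 7.30 ± 0.20 and 9.02 ± 0.17 (limma, adjusted p = 0.0821), without overlap of the arrays. Ptpn6, a phosphatase that dampens receptor signalling, lay at 8.56 ± 0.56 and 9.82 ± 0.16 (limma, adjusted p = 0.196). The chains of the type I receptor, named after looking at their values, lay at 7.33 ± 0.62 and 7.12 ± 0.12 for Ifnar1 and at 8.68 ± 0.20 and 8.22 ± 0.42 for Ifnar2. Stat2 and Irf9, parts of the factor that binds the ISRE, were chosen in the same way and lay at 5.59 ± 0.98 and 5.65 ± 0.27 and at 7.77 ± 0.77 and 7.12 ± 1.06.

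Of 18 interferon ligands and sensors on the array, 12 passed the filter, 7 higher and 5 lower, with a median difference of 0.14 and 0 called. With the replicate block 1 was called higher and 0 lower, against 586 and 357 of all 11386 genes. Arrays did not overlap for 3 that were higher and 1 that was lower, against 10.3% and 8.76% of all genes. The DNA-sensing adaptor Sting1 lay at 6.21 ± 0.67 and 7.87 ± 0.04 (limma, adjusted p = 0.145) and the kinase Ikbke at 5.59 ± 0.30 and 7.01 ± 0.48 (limma, adjusted p = 0.159). The ligands Ifna2, Ifna4, Ifna5, Ifnb1 and Ifng lay at 4.33 or below on all arrays and did not pass, and a low RMA value does not show absence. The ligand Ifna1 passed, at 4.83 ± 0.43 and 4.96 ± 0.32, and its arrays overlapped.

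Genes whose products modify or bind Ifitm proteins differed little. Of 10 tested, 6 were higher and 4 lower, with a median difference of 0.02 and 0 called. With the replicate block 1 was called higher and 0 lower, against 586 and 357 of all 11386 genes. The tetraspanin Cd9 was the one with a large difference, at 5.26, 5.19, 5.72 and 5.87 in the full-length and 7.30, 6.87, 7.19 and 7.06 in the truncated arrays (limma, adjusted p = 0.0825). Fkbp11, a binding partner of Ifitm5, lay at 4.96 ± 0.19 and 5.54 ± 0.28 (limma, adjusted p = 0.416). The tetraspanin Cd81, which stands with Ifitm proteins in the B cell coreceptor complex and was chosen after its values were seen, lay at 7.44 ± 1.28 and 7.44 ± 0.19. These equal means hide opposite array pairs. Cd81 lay at 8.34, 7.78, 5.90 and 5.90 in the full-length and at 7.31, 7.31, 7.69 and 7.72 in the truncated arrays. Of 9 other genes with a CD225 domain 2 passed the filter, Prrt1 with a difference of 0.19 and Syndig1 with 0.33. Of the 10 germ cell genes on the array only Kit and Dnd1 passed, with differences of -0.57 and -0.37. Among the others, Dppa3, Prdm14 and Ddx4 reached at most 3.95. Dazl lay at 5.34 and 4.91 on the first full-length pair and reached 4.45 on the remaining arrays. Pou5f1 reached 4.65, Alpl 4.93, Prdm1 4.41 and Tfap2c 4.37.

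Over the 8 arrays, the gene most like Ifitm1 was Irf8, with a Pearson r of 0.996. Irf8 lay at 6.30, 5.96, 6.84 and 6.88 in the full-length and at 8.32, 8.28, 8.95 and 8.90 in the truncated arrays, with the second array pair above the first in both genotypes, as for Ifitm1. Next came the metalloprotease Adam8 (0.994) and the small GTPase Rap2a (0.993). Ifitm2 was closest to the kinase Pak2 (0.998), the complement gene C1qb of macrophages (0.994) and Rufy1 (0.994). Ifitm3 was closest to Ncf1, a subunit of the phagocyte oxidase (0.9987), the granule protein gene Ltf (0.9985) and the sorting receptor Sorl1 (0.9974). Ifitm6 was closest to Hacd4 (0.999), the steroid enzyme Hsd11b1 (0.998) and Msrb1 (0.997), and Ifitm5 to Rph3a (0.967), 9030607L20Rik (0.960) and Abca7 (0.951). An r over 0.95 was reached by 139 genes (1.22%) with Ifitm1, 88 (0.773%) with Ifitm2 and 245 (2.15%) with Ifitm3. With Ifitm6 it was reached by 262 (2.3%) and with Ifitm5 by 5 (0.0439%), so the order among the first few says little. For Ifitm1, Ifitm2, Ifitm3 and Ifitm6 these r include the genotype difference on which the family was picked. A gene with a similar difference between the genotypes therefore scores high, and r within a genotype was not computed for these genes.

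The medians of the secondary granule and the monocyte and macrophage lists were higher on every truncated array, as were Ifitm1, Ifitm2, Ifitm3 and Ifitm6. All 12 tested genes of neutrophil secondary granules were higher in truncated mice, with a median difference of 2.59, 0 called and arrays that did not overlap for any of the 12, against 10.3% of all genes. Their list median ran from 6.91 to 8.93 in full-length and from 10.93 to 11.44 in truncated arrays, with the brightest members Chil3 at 12.15 ± 0.38 and 13.06 ± 0.09 and S100a8 at 10.80 ± 0.77 and 13.35 ± 0.0046. All 16 tested monocyte and macrophage genes had a higher mean, with a median difference of 1.53 and 0 called. The list medians were at most 6.89 in full-length and 7.96 to 8.35 in truncated arrays. Arrays did not overlap for 13 of the 16, against 10.3% of all genes. They overlapped for Fcgr1, Cd14 (difference 0.34) and Cx3cr1 (0.003). The brightest members of this list, the lysozyme gene Lyz2 and the receptor Csf1r, lay at 10.57 ± 0.49 and 12.05 ± 0.33 and at 9.48 ± 0.30 and 10.97 ± 0.54. Of 8 tested primary granule genes 6 were higher, while Myb and Hdc were lower. The list medians overlapped, at 4.81 to 10.04 in full-length and 9.42 to 11.01 in truncated arrays. The erythroid list, with 15 of 16 tested genes lower, ran from 8.62 to 11.03 in full-length and from 8.40 to 9.75 in truncated arrays. Medians without overlap were not particular to myeloid lists. For interferon receptors and signalling the median was at most 8.45 in full-length and at least 8.64 in truncated arrays. The same bounds were 7.13 and 7.48 for ligands and sensors, 5.73 and 5.93 for megakaryocyte and platelet genes, and 5.03 and 5.20 for stroma and endothelium. The part of cell composition in the Ifitm differences was not tested.

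**Figure D5:**
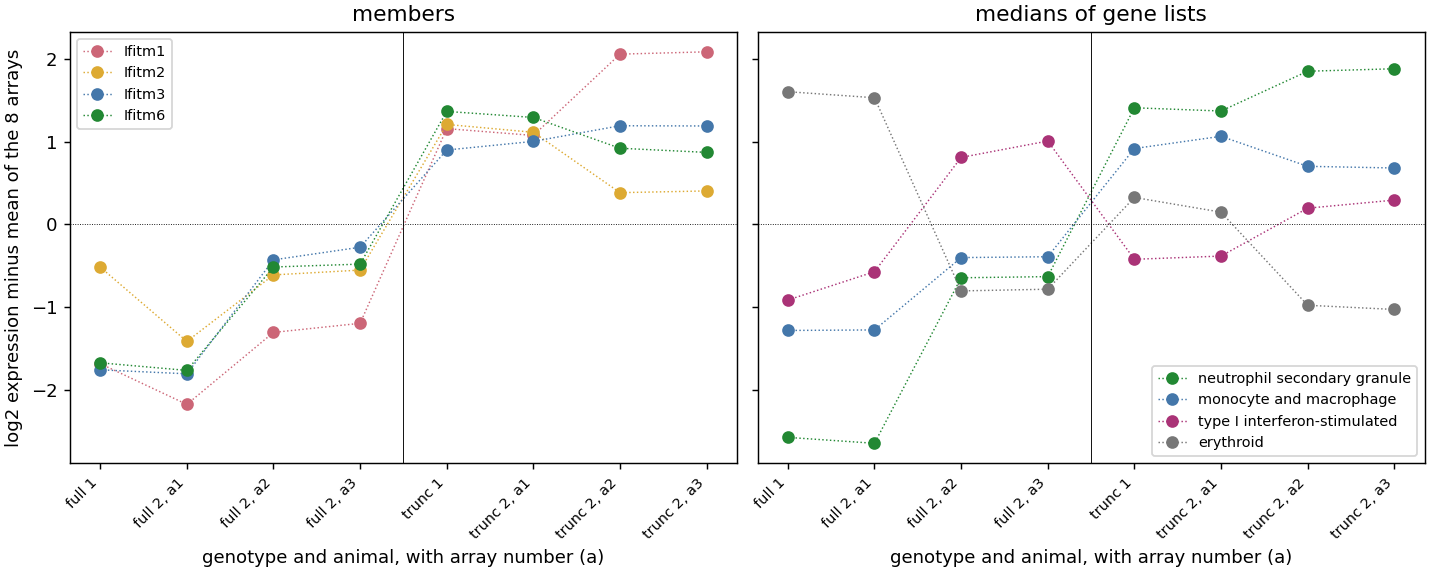
Log2 expression minus its mean over the 8 arrays, for 4 Ifitm genes (left) and for the medians of 4 gene lists (right), by genotype, animal and array; the dotted lines only link points of one gene or list. The secondary granule and the monocyte list lie higher in all truncated arrays, as the 4 Ifitm genes do, while the type I interferon list is highest in a full-length array (7.68 before centring).

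The members also differed among themselves between the truncated array pairs. In truncated mice Ifitm1 was higher in the second array pair (11.02 and 11.04), where the secondary granule median was 11.41 and 11.44 against 10.97 and 10.93. Ifitm2 and Ifitm6 were higher in the first array pair, where the monocyte and macrophage median was 8.20 and 8.35 against 7.98 and 7.96. Other lists differed more between these pairs. The erythroid median was 9.75 and 9.57 on the first against 8.45 and 8.40 on the second pair, the eosinophil and mast cell median 9.04 and 8.88 against 7.29 and 7.24, and the stem and progenitor median 6.86 and 6.98 against 6.08 and 6.10. Others rose, as Ifitm1 did. The primary granule median was 9.47 and 9.42 against 10.97 and 11.01, and the plasma cell median 5.48 and 5.46 against 8.10 and 8.12. For B cell genes it was 5.61 and 4.91 against 6.41 and 6.31, and for type I genes 6.25 and 6.29 against 6.87 and 6.97. Their part in the values of the members was not tested. Each genotype has 4 arrays of 2 animals, and no test was made of the difference between the pairs.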

How the data were processed

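The deposited table holds log2 expression of 45101 probe sets on 8 arrays. The authors made these log2 values with RMA, per the submitters' processing notes, which give no version; base 2 was inferred from how far the values spread. RMA corrects background, normalizes quantiles and summarises probes, so differences of dim genes are understated. The number of arrays limits the precision.

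Gene names follow the platform annotation, which gives a single symbol to 34945 probe sets. Those with several (932) or none (9160) were left out. Each Ifitm member had a single probe set, so no second one could check it, and cross-hybridisation among these related genes was not tested.

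Arrays of an animal were averaged and the brightest probe set stood for a gene. The 11386 genes with at least 2 of 4 animals above the median went into limma 3.58.1 under R 4.3.3, using lmFit and eBayes (2 residual and 3.25 prior degrees of freedom, Benjamini-Hochberg adjusted p under 0.05). Differences are truncated minus full-length, with mean ± SD over 2 animals. The p-values rest on the spread between these animals, which eBayes moderates with the spread of all genes. The mean of animal 2 averages unlike arrays, so an SD over 2 animals can be small although arrays differ. The members and the gene lists were chosen with earlier results of these data known. Named genes are all members, the 2 genes with the largest difference of each interferon or Ifitm list, the 3 genes most correlated with each member, the flanking genes and the 2 brightest genes of a cell type list that is described; other genes, including the markers of lymphocytes, osteoblasts and germ cells, were added after their values were seen.

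Arrays that share an animal and replicate number across genotypes deviated together from their genotype means, with r of 0.301, 0.143, 0.229 and 0.214 over genes. The highest r with another number was 0.123, 0.161, 0.227 and 0.218, so only the first array stood clearly closest to its own number. All 4 values passed 0.1, and a replicate block was tried as one of 19 alternative settings. At array level the block treats arrays of an animal as independent.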

Additional observations from a re-analysis of the deposited data

Results flagged for a closer look

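In the full-length mice, Ifitm2 in array 1 of animal 2 (7.604) lay apart from the other 3 arrays, with a gap of 0.895 of the group's range. Ifitm5 in the array of full-length animal 1 (5.333) lay below the other 3 arrays, with a gap of 0.867 of a range that was small in itself. Among 10 groups of 4 arrays examined these were the 2 with an array beyond the 95% critical value of Dixon's test. Chance flags about 1 in 20 such groups, and the arrays are not independent. Ifitm6 moved in opposite directions between the array pairs, by 1.222 in full-length and by -0.4338 in truncated mice (arrays 2 and 3 of animal 2 minus the other 2 arrays), and this difference was not tested.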

How the results depend on the processing

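The differences of Ifitm1, Ifitm2, Ifitm3 and Ifitm6 kept their direction in all 19 settings. When 1 animal or array was left out they ran from 2.779 to 3.362, 1.322 to 1.897, 1.851 to 2.772 and 2.117 to 2.871, and that of Ifitm5 from -0.153 to 0.05837. They moved beyond the spread between animals without the first full-length array pair (Ifitm1 2.70, Ifitm3 1.366, Ifitm6 1.695) and with replicate 1 of each animal alone (Ifitm2 2.127, Ifitm6 3.049). Counts without the first full-length pair are not given, since 1 full-length animal remains. In limma an unadjusted p under 0.05 was reached by 1606 of 11386 genes in the reported fit. It was reached by 1563 of 10211 genes with the mean over probe sets and by 3755 of 34945 probe sets, not genes, with no filter. With centred arrays it was reached by 1620 of 11386 genes, and with an intensity trend and robust prior by 1566. The count of genes or probe sets called was 0 in each of these settings. It was 345 with the animal as a random block, 943 with the replicate block, 2017 with the array pair as a block and 3055 with replicate 1 of each animal, and 0 to 639 when 1 animal or array was left out, the latter without full-length animal 2, which leaves 1 full-length array, assumed to vary like the truncated animals. Without array 2 or 3 of full-length animal 2 it was 334 or 420, and without array 2 or 3 of truncated animal 2 it was 2. With the replicate block 2 type I genes were called higher and 2 lower. With replicate 1 of each animal, 7 of 28 type I genes were called higher and 8 lower. Of 19 gamma genes, 8 were then higher and 3 lower, and of 16 receptor genes 5 and 1. In that setting 1659 of 11448 genes were higher and 1396 lower, on arrays that form the closely alike first array pairs. With the animal as a random block 1 of 30 type I, 1 of 21 gamma, 2 of 16 receptor and 1 of 10 modifier genes were called, all higher. Of all 11386 genes, 264 were then higher and 81 lower. With the array pair as a block 2 type I genes were called higher and 4 lower, and 5 gamma genes higher and 1 lower. That block also called 5 receptor genes, 2 ligands or sensors and 1 modifier, all higher, against 1098 higher and 919 lower among all genes. List medians ran, when 1 animal or array was left out, from -0.4243 to 0.385 (type I), -0.03504 to 0.8123 (gamma), 0.08237 to 0.3915 (receptors), -0.01563 to 0.2371 (ligands and sensors) and -0.0652 to 0.09583 (modifiers). Without the first full-length pair they were -0.8902, -0.2972 and 0.03992 for the first 3 lists. With replicate 1 of each animal the receptor list was at 0.2793, and the modifiers were at -0.107 with the mean over probe sets and -0.1016 without a filter. The causes were not tested, and the number of animals limits every value.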
